A study of Mus musculus with 4 samples.

Results

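Genes of glucose metabolism were measured in KSP-positive and KSP-negative cells sorted from differentiated mouse embryonic stem cells. The list held 44 genes, taken by symbol: the steps of glycolysis, the carriers of glucose and lactate, the pentose phosphate pathway, gluconeogenesis and glycogen. Of these, 41 had a probe set annotated to a single gene, of 18193 genes with one on the array, and 38 were bright enough to be tested, of 12849. Gpi1, Eno1 and G6pdx had no single-gene probe set, Fbp2 and Pck1 were under the limit on dim signals, and Gapdh was represented only by control probe sets, which are given separately. KSP (kidney-specific cadherin, the product of Cdh16) is a cadherin of tubular epithelium in the kidney, and the sort was made to obtain cells of the renal lineage. EB3 cells of strain 129/Ola, 1 embryonic stem cell line with a CAG-GFP transgene, were grown with Activin at 10 ng/mL until day 18. They first formed embryoid bodies and were then cultured on gelatin-coated dishes. Both fractions thus shared line, transgene and Activin and differed in staining with the anti-KSP antibody. RNA of 2 KSP-positive and 2 KSP-negative fractions from 2 independent experiments was amplified over more than one cycle of cDNA synthesis and hybridised to 4 Affymetrix mouse genome arrays.

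Glycolysis splits glucose into pyruvate in the cytosol and yields ATP without oxygen. Lactate dehydrogenase turns pyruvate into lactate and back as a tetramer of A subunits, encoded by Ldha, and B subunits, encoded by Ldhb, and lactate crosses the membrane with a proton through the monocarboxylate carriers MCT1 (Slc16a1) and MCT4 (Slc16a3). Pluripotent stem cells are known for a high rate of glycolysis, whereas the mature proximal tubule of the kidney oxidises other fuels and makes glucose. Glycogen is the branched store of glucose, built from UDP-glucose.

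Many glycolytic genes carry sites for the hypoxia-inducible factors, whose core recognition letters are contained in ACGTG. The 250 bases before the start of 3 genes of lactate handling are shown. These genes were chosen after their signals were seen: Slc16a1 and Ldhb were lower in KSP-positive cells, and Ldha overlapped between the fractions. The bases are from RefSeq (GRCm38.p6), 5′ to 3′ on the strand of the gene, with ACGTG on either strand in capitals. The palindrome CACGTG reads as ACGTG on both strands and was counted for both motifs.
Slc16a1 (chr3:104638414-104638663, plus strand): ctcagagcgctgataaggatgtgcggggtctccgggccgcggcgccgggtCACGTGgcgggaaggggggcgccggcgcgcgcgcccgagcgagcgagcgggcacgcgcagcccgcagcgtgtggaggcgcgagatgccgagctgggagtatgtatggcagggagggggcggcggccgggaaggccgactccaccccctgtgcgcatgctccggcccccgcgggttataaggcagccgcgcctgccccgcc
Ldha (chr7:46845554-46845803, plus strand): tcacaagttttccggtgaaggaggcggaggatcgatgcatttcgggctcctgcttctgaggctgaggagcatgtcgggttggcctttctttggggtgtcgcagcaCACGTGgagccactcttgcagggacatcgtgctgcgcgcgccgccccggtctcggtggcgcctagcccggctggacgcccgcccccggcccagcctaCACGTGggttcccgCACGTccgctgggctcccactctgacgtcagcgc
Ldhb (chr6:142507958-142508207, minus strand): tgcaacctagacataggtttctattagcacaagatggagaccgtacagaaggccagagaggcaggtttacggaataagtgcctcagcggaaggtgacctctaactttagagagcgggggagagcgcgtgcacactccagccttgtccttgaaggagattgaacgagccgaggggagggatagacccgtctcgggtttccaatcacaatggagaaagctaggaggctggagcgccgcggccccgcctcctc
The Ldha window, the first of 2 entries for that gene, held 5 matches, the Slc16a1 window held 2, both within a single CACGTG, and the Ldhb window held 0. The second Ldha entry held 0, and the entry of the other lactate carrier, Slc16a3, held 2. A relation between matches and signals was not tested. ACGTG was found in 23 of 60 promoter entries of the listed genes (38.3%), against 5444 of 32851 windows of the same length over all genes read (16.6%). CACGTG was found in 6 of the 60 entries (10%), against 1978 of all windows (6.02%). These are matches of letters, not binding sites, and 42 of the 44 genes had an entry.

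Most of these genes were not called, and the called differences were decreases of 2 genes of lactate handling. Slc16a1 and Ldhb fell in KSP-positive cells, both 3.75-fold, at an adjusted p under 0.05 in limma (Benjamini-Hochberg over 12849 genes). Of the 38 tested genes, 0 were called higher, where 1.84% of all genes were, and 2 were called lower, where 1.65% of all genes were. Over 2-fold differences were found upwards in 0 (7.92% of all genes) and downwards in 3, namely Slc16a1, Ldhb and Bpgm (7.66% of all genes). Both KSP-positive arrays were above both KSP-negative arrays in 5 genes (24.4% of all genes) and below them in 8 (24.6% of all genes), and the fractions overlapped in 25. The median difference, KSP-positive minus KSP-negative, was -0.11 on the log2 scale over the 38 genes and -0.03 over all genes. The 38 genes ranged from -1.91 to 0.78. Within 0.5 of 0 were 25 of them, and 7260 of all 12849 genes. At an unadjusted p under 0.05 in limma, 1 gene was higher (Ugp2), where 9.05% of all genes were, and 5 were lower (Slc16a1, Ldhb and the uncalled Slc2a3, Pfkl and Pkm), where 8.72% of all genes were. The methods' t-test had 1 higher (5.18% of all genes) and 3 lower (4.44% of all genes). With 2 arrays per fraction the p-values measure the spread between these sorts only, and in bulk RNA fewer cells of a type and less RNA per cell cannot be told apart.

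**Figure D1:**
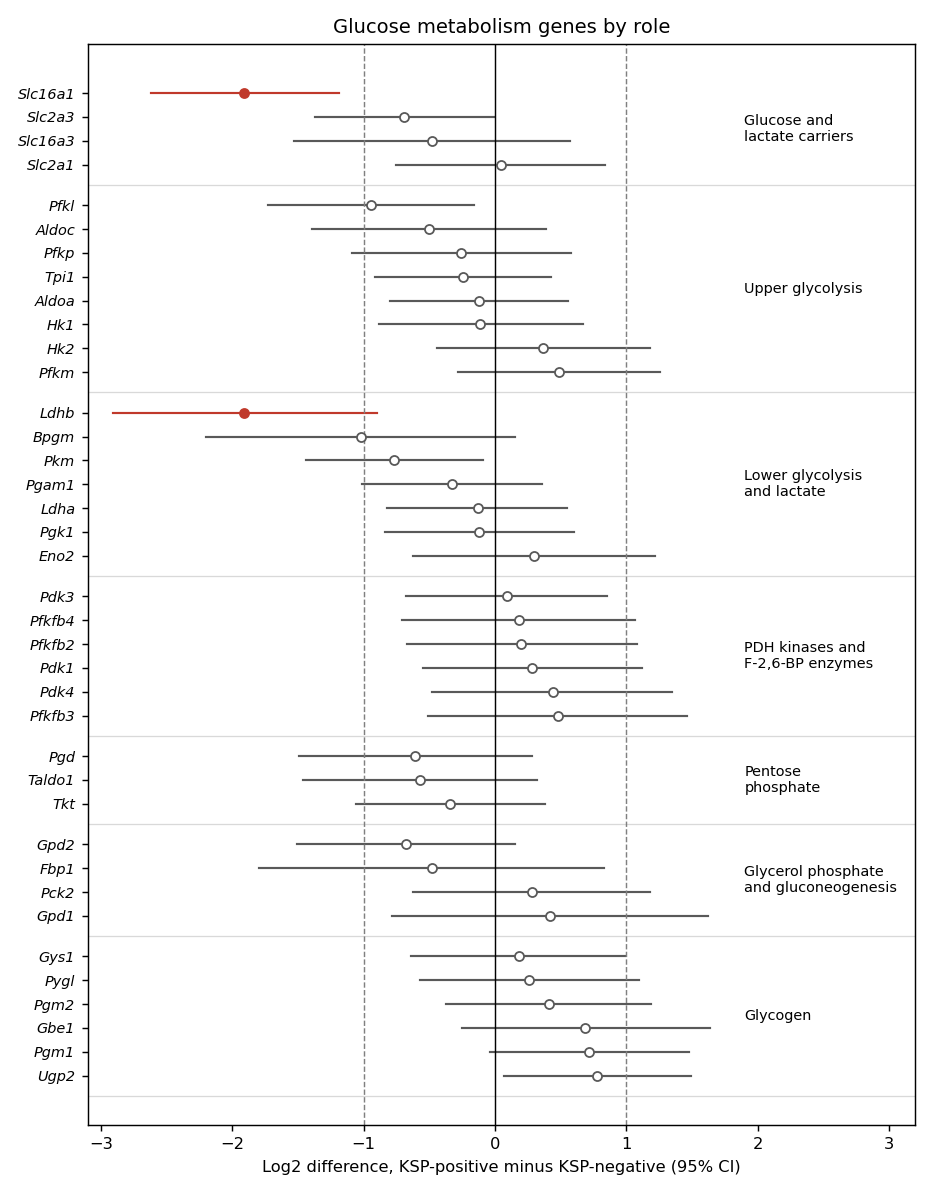
Log2 difference, KSP-positive minus KSP-negative, of the 38 tested genes of glucose metabolism, ordered by role, with the 95% confidence interval from limma (2 arrays per fraction). Slc16a1 and Ldhb, both at -1.91, were the called genes, and the highest value was 0.78 for Ugp2.

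The whole data set sets the frame for these values. Array medians were 55.2 and 62.2 in KSP-positive cells, against 67.4 and 56.4 in KSP-negative cells. These are signals as deposited, ahead of the scaling to the same 75th percentile. Log2 signals correlated at 0.945 within either fraction and at 0.856 to 0.921 between fractions. Over all tested genes, 236 were called higher and 212 lower in KSP-positive cells. Cdh16 itself, the gene of the sorted antigen, differed by 0.34 with overlapping arrays (limma adjusted p = 0.816), so the array did not separate the fractions by the transcript used to name them. Marker lists of other cells did move with the fractions. In KSP-positive cells 13 of 14 embryonic stem cell markers and 6 of 12 epithelial markers were called lower (1.65% of all genes). Called higher were 11 of 14 macrophage markers and 6 of 13 mesenchymal markers (1.84% of all genes).

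Both called genes act in lactate handling, as do the uncalled Ldha and Slc16a3. The log2 signal of Slc16a1 was 10.46 and 10.50 in KSP-positive cells, against 12.57 and 12.20 in KSP-negative cells. The fractions lay far apart and the KSP-positive arrays were nearly equal. The difference was -1.91 (SE 0.32, 95% CI -2.62 to -1.19, limma adjusted p = 0.0127). A second probe set of the gene was under the limit on dim signals and was not tested. It was at the floor of 3.62 on both KSP-positive arrays, read 4.80 and 5.36 on the KSP-negative arrays, and gives no exact size. Ldhb read 9.05 and 10.20 in KSP-positive cells, against 11.06 and 12.00 in KSP-negative cells. Replicate 2 was the higher array in either fraction, and the fractions did not overlap. The difference was -1.91 (SE 0.45, 95% CI -2.91 to -0.90, limma adjusted p = 0.0478), and all 4 probe sets of Ldhb gave differences of -1.82 to -1.91. None of these 4 was called where every probe set was tested (limma adjusted p = 0.0906 to 0.117). The Ldhb call did not hold without KSP-positive replicate 1 (-1.33, limma adjusted p = 0.158) or without KSP-negative replicate 2 (-1.44, limma adjusted p = 0.144), whereas Slc16a1 was called without any single array.

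The partner subunit and the other lactate carrier gave other values. Ldha read 12.97 and 12.86 in KSP-positive cells, against 12.85 and 13.25 in KSP-negative cells. These overlapped, and the interval of the difference ran from -0.82 to 0.55 around -0.13, which leaves out a change of the size fitted for Ldhb. The difference between the changes of Ldha and Ldhb was not tested. Slc16a3, the carrier typical of cells that export lactate, read 8.19 and 9.16 in KSP-positive cells, against 8.56 and 9.76 in KSP-negative cells (difference -0.48, 95% CI -1.53 to 0.57, limma adjusted p = 0.656). Replicate 2 was the higher array of Slc16a3 in either fraction, and the fractions overlapped. The embryonic stem cell markers moved with both called genes: their summed scaled signal was 8640 and 9460 in KSP-positive cells, against 20800 and 34200 in KSP-negative cells, and their median difference was -3.40. The epithelial markers summed to 8460 and 10700 in KSP-positive cells, against 23600 and 29600 in KSP-negative cells, with a median difference of -2.03. None of the markers of either list was at the floor on all arrays, and their part in the Slc16a1 and Ldhb differences was not tested.

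**Figure D2:**
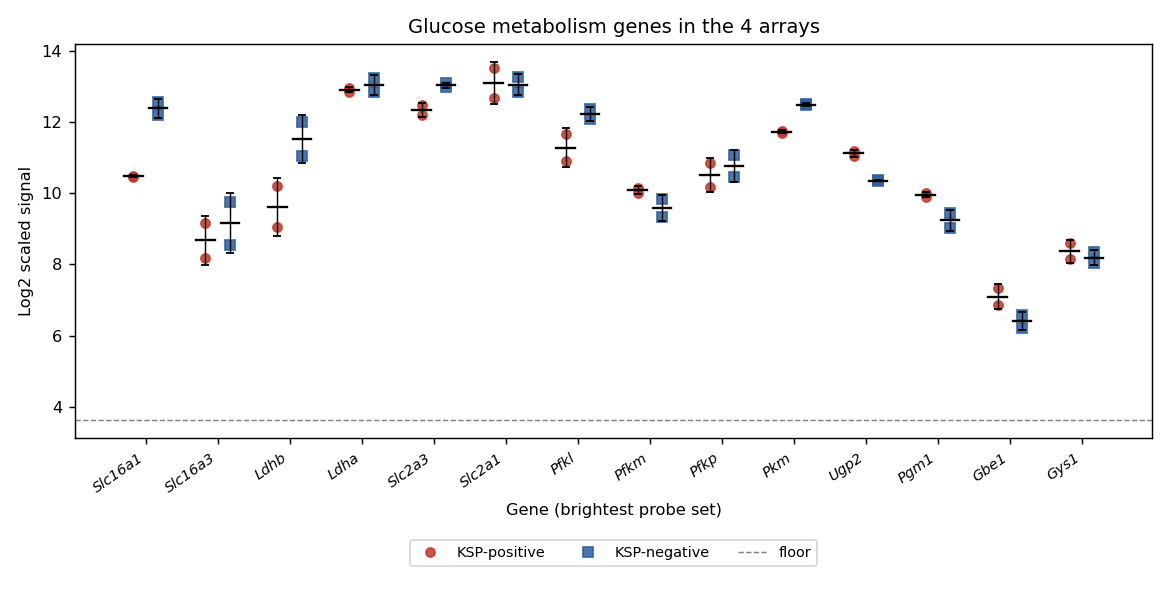
Log2 scaled signal of selected glucose metabolism genes on each of the 2 KSP-positive and 2 KSP-negative arrays, 1 probe set per gene, with means and SD, and the floor as a dashed line. Slc16a1 and Ldhb lay apart between the fractions, Ldha overlapped, and Ugp2 and Pgm1 were higher on both KSP-positive arrays.

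The glucose carriers differed between probe sets. Slc2a1, which encodes the widely expressed carrier GLUT1, read 13.52 and 12.68 in KSP-positive cells, against 12.84 and 13.26 in KSP-negative cells on its brightest probe set. The arrays crossed, and the difference was 0.05 (95% CI -0.75 to 0.84, limma adjusted p = 0.964). The other Slc2a1 probe sets gave -0.38 and -0.90, so no direction was assigned. Slc2a3 encodes GLUT3, a high-affinity carrier of embryonic cells and neurons. It read 12.48 and 12.20 in KSP-positive cells, against 12.98 and 13.09 in KSP-negative cells (difference -0.69, 95% CI -1.37 to -0.01, limma adjusted p = 0.274), with no overlap and no call. Its 3 other probe sets were lower too. One read 12.02 and 11.80 in KSP-positive cells, against 12.83 and 13.03 in KSP-negative cells. A dim one was at the floor of 3.62 and at 4.58 in KSP-positive cells, against 8.15 and 6.61 in KSP-negative cells. Both of its KSP-positive values were under the limit on dim signals of 5.14, so it passed that limit only through the KSP-negative arrays and gives no exact size. The last was dim in KSP-positive cells too, at 4.88 and 4.62, against 7.09 and 5.81 in KSP-negative cells. With the mean of its probe sets in place of the brightest, Slc2a3 passed the threshold at -1.67 (limma adjusted p = 0.0332), a value that includes these dim probe sets. The Slc2a3 call thus turned on which probe sets were read.

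**Figure D3:**
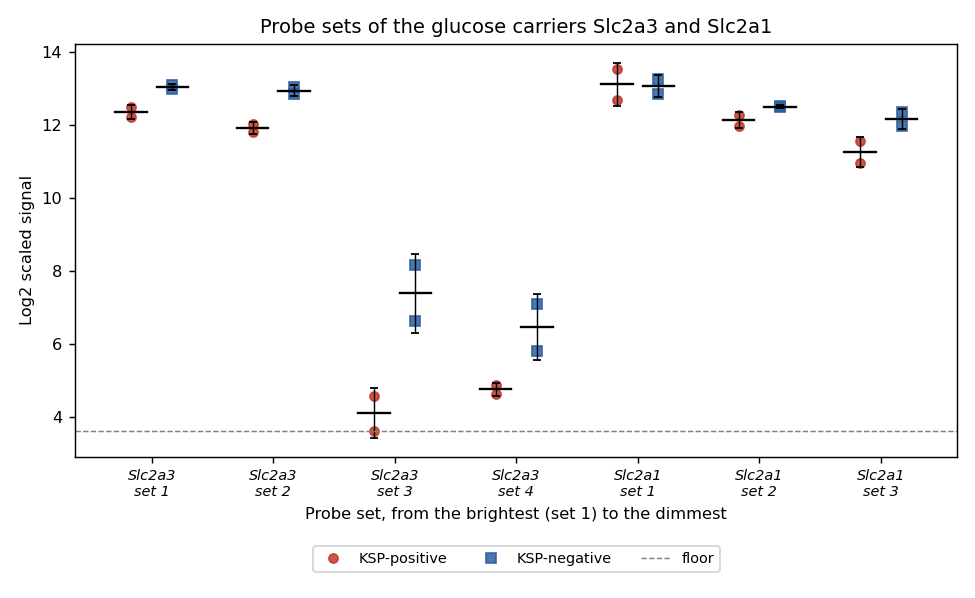
Log2 scaled signal of each probe set of the glucose carriers Slc2a3 and Slc2a1 on the 2 KSP-positive and 2 KSP-negative arrays, from bright to dim, with means, SD and the floor as a dashed line. All 4 Slc2a3 probe sets were lower in KSP-positive cells, and the 3 Slc2a1 probe sets differed in sign.

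The shared steps of glycolysis were bright and close between fractions. The 3′ control probe set of Gapdh, the glyceraldehyde phosphate dehydrogenase that the study also used to normalise its PCR, read 13.29 and 12.81 in KSP-positive cells, against 13.06 and 13.26 in KSP-negative cells. The difference was -0.11 (95% CI -0.81 to 0.60), with a limma adjusted p of 0.907 in a fit that kept this control probe set, chosen after seeing the data. Aldoa (aldolase A) gave -0.12, and its 5 probe sets lay between -0.14 and -0.04. Pgk1 (phosphoglycerate kinase) gave -0.12, Tpi1 (triose phosphate isomerase) -0.24 and Pgam1 (phosphoglycerate mutase) -0.33, none of them called, with adjusted p of at least 0.640 in limma. Tpi1 and Pgam1 were nevertheless lower on both KSP-positive arrays. The other Pgk1 probe sets gave -0.32 without overlap and 0.04 with overlap. Those of Tpi1 gave -0.35 without overlap and -0.02 with overlap.

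Gate-keeping enzymes came in isoenzymes, and these spread more. The 3 subunits of phosphofructokinase, the committed step of glycolysis, gave 0.49 for the muscle form Pfkm, -0.94 for the liver form Pfkl and -0.26 for the platelet form Pfkp, and none was called. Pfkl read 10.90 and 11.67 in KSP-positive cells, against 12.09 and 12.37 in KSP-negative cells (95% CI -1.73 to -0.16, limma adjusted p = 0.191), without overlap. A second Pfkl probe set gave -1.09 and the dimmest 0.12. The other Pfkp probe sets gave -0.80 without overlap and -0.29 with overlap. Pfkm read 10.16 and 10.00 in KSP-positive cells, against 9.85 and 9.34 in KSP-negative cells (limma adjusted p = 0.512), also without overlap. Whether the subunits differed from each other in their change was not tested. Pyruvate kinase, encoded by Pkm, closes the pathway. Pkm read 11.70 and 11.76 in KSP-positive cells, against 12.47 and 12.52 in KSP-negative cells, with replicates within 0.1 of each other. The difference of -0.77 (SE 0.31, 95% CI -1.44 to -0.09) was large beside that spread but was not called (limma adjusted p = 0.219), nor was it by the methods' t-test (adjusted p = 0.455). The hexokinases, which trap glucose as glucose 6-phosphate, overlapped: Hk1 differed by -0.11 and Hk2 by 0.37. Aldoc (aldolase C) differed by -0.50 and Eno2 (the neuronal enolase) by 0.30, both with overlap. Bpgm, which makes the bisphosphoglycerate of red cells, read 7.28 and 8.81 in KSP-positive cells, against 8.52 and 9.61 in KSP-negative cells (difference -1.02, limma adjusted p = 0.349). It was called only without KSP-positive replicate 2 (-1.78, limma adjusted p = 0.0187). The erythroid markers summed to 3780 and 5300 in KSP-positive cells, against 2060 and 13300 in KSP-negative cells, so the fractions overlapped. Among them, the embryonic haemoglobin gene Hbb-bh1 read 8.88 and 9.85 in KSP-positive cells, against 9.39 and 12.31 in KSP-negative cells, also with overlap. The relation of these markers to Bpgm was not tested.

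Side branches of glycolysis were not called either. Pgd (6-phosphogluconate dehydrogenase), Taldo1 (transaldolase) and Tkt (transketolase) belong to the pentose phosphate pathway, the source of NADPH and ribose. They gave -0.61, -0.57 and -0.34 with overlapping arrays on their brightest probe sets. The other Tkt probe sets gave -0.83 without overlap and -0.31 with overlap. Gpd2, the mitochondrial glycerol phosphate dehydrogenase, read 8.85 and 8.67 in KSP-positive cells, against 9.06 and 9.82 in KSP-negative cells (difference -0.68, limma adjusted p = 0.383). Its cytosolic partner Gpd1 differed by 0.42 with overlap. Fbp1, the fructose bisphosphatase of liver and proximal tubule, read 5.58 and 7.60 in KSP-positive cells, against 7.19 and 6.95 in KSP-negative cells, the widest replicate spread of all these genes (SD 1.43 in KSP-positive cells). Pck2, the mitochondrial phosphoenolpyruvate carboxykinase, differed by 0.28 with overlap on its brightest probe set. Its dimmer probe set gave 1.01 without overlap, at 6.32 and 6.10 in KSP-positive cells, against 4.59 and 5.81 in KSP-negative cells. Fbp2 and Pck1, the muscle fructose bisphosphatase and the cytosolic carboxykinase of the proximal tubule, were too dim to test.

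Genes of glycogen turnover all had positive differences, and none was called. The 6 genes had a median difference of 0.55, and 4 of them were higher on both KSP-positive arrays (24.4% of all genes). Ugp2, which makes the UDP-glucose that glycogen synthase uses, read 11.20 and 11.06 in KSP-positive cells, against 10.36 and 10.34 in KSP-negative cells. The replicates were close, and the difference was 0.78 (SE 0.32, 95% CI 0.07 to 1.49, limma adjusted p = 0.232). All 5 Ugp2 probe sets were higher on both KSP-positive arrays, by 0.54 to 0.79. Pgm1 (phosphoglucomutase) read 10.02 and 9.91 in KSP-positive cells, against 9.45 and 9.03 in KSP-negative cells (difference 0.72, limma adjusted p = 0.311). Gbe1, the branching enzyme, read 7.34 and 6.85 in KSP-positive cells, against 6.59 and 6.22 in KSP-negative cells (difference 0.69, limma adjusted p = 0.438). Pgm2 was the remaining gene without overlap, at 0.41. The synthase Gys1 and the liver phosphorylase Pygl, the enzymes that lengthen and shorten the chains, overlapped at 0.18 and 0.26.

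Other genes of glycogen metabolism gave similar values. Of 15 tested, 14 had a positive difference, with a median of 0.51, 8 were higher on both KSP-positive arrays (24.4% of all genes) and 4 were over 2-fold higher (7.92% of all genes). Called higher was 1 gene (1.84% of all genes), Ppp1r3b, a subunit that brings protein phosphatase 1 to glycogen. It read 9.04 and 8.12 in KSP-positive cells, against 6.94 and 6.78 in KSP-negative cells (difference 1.72, 3.29-fold, limma adjusted p = 0.0494). The Ppp1r3b call was lost under 11 of the alternatives, among them the values as deposited (limma adjusted p = 0.0574) and the fit without KSP-positive replicate 1 (1.26, limma adjusted p = 0.278). Its relatives Ppp1r3c and Ppp1r3d differed by 1.34 and 1.29 without a call (limma adjusted p = 0.0842 and 0.118). The macrophage markers moved with this list: they summed to 30000 and 14000 in KSP-positive cells, against 2740 and 3110 in KSP-negative cells. Median differences were also positive for mesenchymal (1.81, 13 tested genes), fat cell (1.81, 2 genes), cardiomyocyte (0.73, 8 genes) and endothelial markers (0.32, 8 genes). The proximal tubule markers had a median of 0.03 over 4 tested genes, 2 of them negative. The remaining marker lists had negative medians. The part of any of these lists in the glycogen values was not tested.

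Regulators of flux into and past glycolysis were close between fractions. The pyruvate dehydrogenase kinases, which hold pyruvate back from mitochondria, gave 0.28 for Pdk1, 0.09 for Pdk3 and 0.44 for Pdk4. The enzymes that set fructose 2,6-bisphosphate, the activator of phosphofructokinase, gave 0.20 for Pfkfb2, 0.48 for Pfkfb3 and 0.18 for Pfkfb4. On the brightest probe sets all 6 differences were positive, all 6 genes had overlapping arrays, and the lowest adjusted p was 0.637 in limma. Of all 12849 genes tested, 6221 had a positive difference and 6561 overlapped. Dimmer Pdk1 probe sets gave -0.12, without overlap, and -0.05. Pfkfb3 read 10.06 and 9.90 in KSP-positive cells, against 10.19 and 8.82 in KSP-negative cells, where KSP-negative replicate 2 stood below the other 3 arrays. Among 19 tested genes of the hypoxia-inducible factors, their regulators and their targets outside this gene set, the median was 0.31. Of them 1 was called higher (1.84% of all genes) and 0 lower (1.65% of all genes). Of these 19, 9 were higher (24.4% of all genes) and 6 lower (24.6% of all genes) on both KSP-positive arrays. The called gene was P4ha2, a collagen prolyl hydroxylase subunit, with 11.34 and 11.23 in KSP-positive cells, against 10.15 and 8.90 in KSP-negative cells (difference 1.76, 3.39-fold, limma adjusted p = 0.0485). The P4ha2 call was lost without KSP-negative replicate 2 (1.14, limma adjusted p = 0.178) and under 7 other alternatives, with adjusted p from 0.0503 with no floor to 0.544 by the methods' t-test. Ddit4, a stress-induced inhibitor of mTOR signalling, had the next smallest p of the list and the opposite sign, with 9.13 and 8.30 in KSP-positive cells, against 10.89 and 9.62 in KSP-negative cells (difference -1.54, limma adjusted p = 0.107). P4ha1, a related hydroxylase subunit, differed by 0.83 (limma adjusted p = 0.288). The mesenchymal markers, collagen genes among them, summed to 106000 and 75900 in KSP-positive cells, against 47500 and 29300 in KSP-negative cells, and their part in the P4ha2 difference was not tested.

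Isoenzymes and carriers outside the gene set held larger single differences. Of 16 tested, 1 was called higher (1.84% of all genes) and 1 lower (1.65% of all genes), with a median of 0.20. On both KSP-positive arrays 7 were higher (24.4% of all genes) and 3 lower (24.6% of all genes). Hk3, the hexokinase of blood cells, rose and read 8.15 and 7.46 in KSP-positive cells, against 4.22 and 4.35 in KSP-negative cells (limma adjusted p = 0.00534). Both KSP-negative values were under the limit on dim signals of 5.14, so Hk3 passed that limit only through the KSP-positive arrays. The size of the Hk3 difference depended on the floor, at 3.52 with the floor used and 2.59 with a floor at the 40th percentile. Its second probe set gave 1.10 and no call (limma adjusted p = 0.285), and Hk3 gave 1.03 without KSP-positive replicate 1 and 1.17 without KSP-positive replicate 2, where that probe set was the brighter. The macrophage marker sums given above moved the same way, and their part in the Hk3 difference was not tested. Hkdc1, a hexokinase-like gene, fell and read 6.33 and 6.43 in KSP-positive cells, against 8.53 and 8.42 in KSP-negative cells (difference -2.10, 4.29-fold lower, limma adjusted p = 0.0147). Slc16a7, which encodes the monocarboxylate carrier MCT2, read 6.40 and 6.26 in KSP-positive cells, against the floor of 3.62 and 4.86 in KSP-negative cells. It was not called (limma adjusted p = 0.0890). Both of its KSP-negative values were under the limit of 5.14, so it passed that limit only through the KSP-positive arrays and gives no exact size. Serine synthesis, which branches from 3-phosphoglycerate, had 0 called of 5 tested genes, with a median of -1.22 and 4 genes lower on both KSP-positive arrays (24.6% of all genes). The largest of these differences was that of Shmt1, a serine hydroxymethyltransferase, at 7.22 and 8.29 in KSP-positive cells, against 9.08 and 10.13 in KSP-negative cells (difference -1.85, limma adjusted p = 0.0619). Phgdh and Psat1, which act earlier in the branch, differed by -1.49 and -1.22 (limma adjusted p = 0.105 for both).

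**Figure D4:**
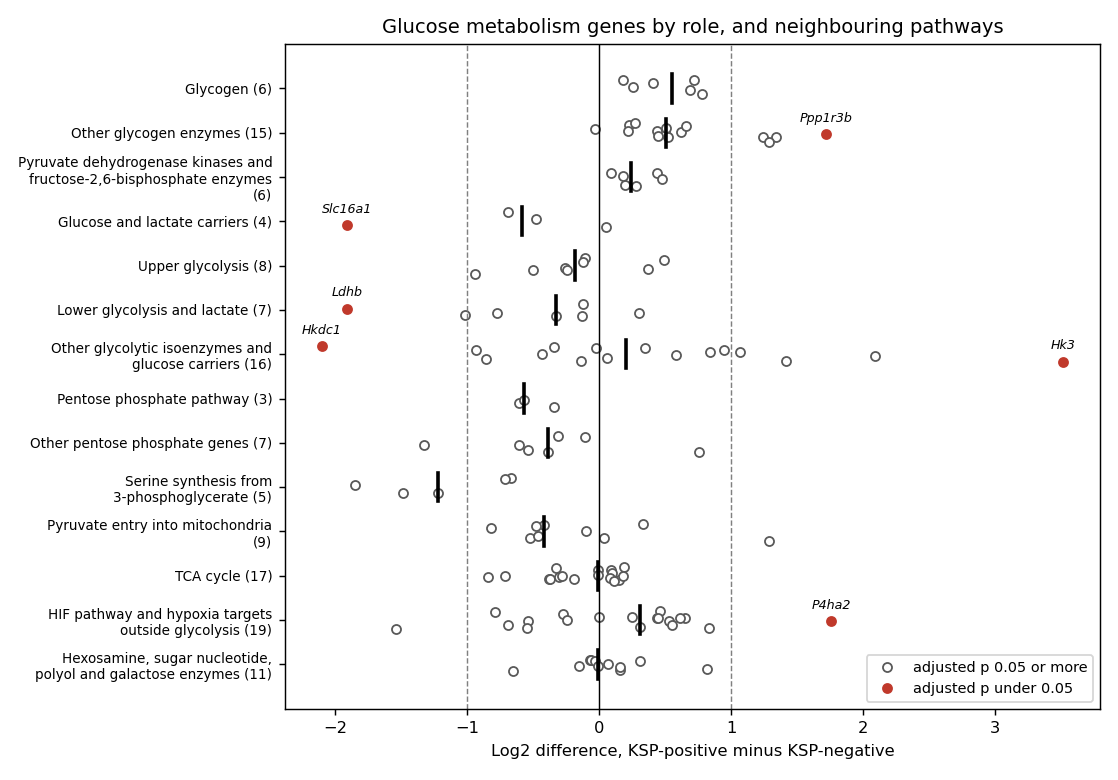
Log2 difference, KSP-positive minus KSP-negative, of each tested gene by role within glucose metabolism and in neighbouring pathways, with filled points for genes called by limma at an adjusted p under 0.05. The glycogen genes lay above 0, with a median of 0.55, and the serine synthesis genes had a median of -1.22.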

How the data were processed

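The deposited values are signal intensities that the authors obtained with MAS5 from Affymetrix mouse genome arrays, 1 column per array. The normalization applied in GeneSpring is not given in the sources used here, so each array was scaled to the mean 75th percentile (281), values under 12.3 (the 20th percentile) were set to that floor (3.62 on the log2 scale), and log2 was taken. Control probe sets and probe sets naming several genes (932) or none (9160) were left out, which kept 34945 of 45037. Each gene was read on its brightest probe set, and was tested where the mean log2 signal of that probe set over the 4 arrays exceeded 5.14 (the 40th percentile). KSP-positive was compared with KSP-negative by limma 3.58.1 (trended empirical Bayes) in R 4.3.3, two-sided, with Benjamini-Hochberg adjustment, after the script was tested on simulated data. Errors are SD over 2 arrays, and the small number of arrays limits precision.

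Among the 44 genes, array values were given by rule for called genes, genes over 2-fold without overlap, Gapdh and isoenzymes of a step so named, and up to 3 genes with the smallest p were named in each pathway list. Other genes shown by array were chosen after their values were seen. Promoter windows on chromosome 18 were left out. The members and lists were chosen with earlier results of these data known. Figures were drawn with matplotlib 3.10.9. Replicate numbers were not treated as pairs (correlation of deviations 0.166, from 2 pairs).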

Additional observations from a re-analysis of the deposited data

How the results depend on the processing

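With all 4 arrays, the decrease of Slc16a1 was called under most alternatives. Its call was lost with no filter on dim genes (limma adjusted p = 0.268) and by the methods' t-test (adjusted p = 0.480). Only 1 probe set of Slc16a1 was above the limit on dim signals. Averaging the probe sets or taking the second brightest thus read the same values, at -1.91, and could not change the difference. Leaving out 1 array gave -2.09 to -1.72 for Slc16a1. Ldhb kept its sign, at -2.48 to -1.33 without 1 array, and its call was also lost (adjusted p in parentheses) when its probe sets were averaged (0.0674), with the second brightest probe set (0.102), no variance trend (0.0964), no filter (0.407) and the methods' t-test (0.560). Genes of the 38 called lower numbered 2, against 0 without the filter, 1 with the second brightest probe set, 1 without the trend, 0 by the methods' t-test and 1 to 3 without 1 array, and none was called higher in any of these. Without the filter 0 of 18193 genes were called, with 2275 at an unadjusted p under 0.05, and the methods' t-test called 0, with 1236. Over 2-fold decreases numbered 5 with the second brightest probe set and 2 to 8 without 1 array (8 where KSP-negative replicate 1 was left out and 5 where KSP-positive replicate 2 was), and over 2-fold increases 1 with the second brightest probe set (0 to 1 without 1 array, Pfkfb3 without KSP-negative replicate 1). The median of the 38 genes lay at -0.19 to 0.03 without 1 array. Directions turned only for genes that were not called. Slc2a1 gave -0.04 on the values as deposited, -0.41 when its probe sets were averaged and -0.38 on the second. Leaving out 1 array gave -0.37 to 0.47 for Slc2a1, -1.08 to 0.12 for Slc16a3, -0.31 to 0.10 for Hk1, -0.02 to 0.76 for Hk2, -0.60 to 0.09 for Pfkp, -0.24 to 0.24 for Aldoa and -0.34 to 0.07 for Ldha. The causes were not tested. The values as deposited shifted the median of all genes to -0.12. With the replicate number as a block, 1131 genes were called, against 448 without it, and 2 of the 38, Slc16a1 and Ldhb, were lower. Pairing changed no call among them.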

Other observations

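No tested gene of pyruvate oxidation or of the hexosamine branch was called. For the counts of called genes below, 1.84% of all genes were called higher and 1.65% lower. Of 17 tested genes of the tricarboxylic acid cycle, 0 were called, with a median of -0.01, and the lowest was Idh3a, a subunit of isocitrate dehydrogenase, at -0.84 (limma adjusted p = 0.232). Of 9 genes for the entry of pyruvate into mitochondria, 0 were called, with a median of -0.42. On both KSP-positive arrays 2 of these 9 were higher (24.4% of all genes) and 4 lower (24.6% of all genes). Mpc1, a subunit of the mitochondrial pyruvate carrier, read 8.20 and 8.92 in KSP-positive cells, against 7.23 and 7.31 in KSP-negative cells (difference 1.29, limma adjusted p = 0.106), the opposite sign to the median of its list. Of 11 hexosamine genes, 0 were called, with a median of -0.01, and Gfpt1, which starts the branch, differed by 0.82 (limma adjusted p = 0.260). Among other pentose phosphate genes, 0 of 7 were called, and Prps1, which makes phosphoribosyl pyrophosphate, differed by -1.33 (limma adjusted p = 0.142).

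The order of replicates within the fractions was much as in the rest of the data. KSP-positive replicate 1 was above KSP-positive replicate 2 while KSP-negative replicate 2 was above KSP-negative replicate 1 in 12 of the 38 genes (31.6%, against 26.9% of all genes tested), among them Slc2a1, Hk2, Aldoa, Pgk1 and Ldha. Replicate 2 was the higher in both fractions in 13 of the 38 genes (34.2%, against 36.1% of all genes tested), among them Ldhb and Pfkl. Among the control probe sets of Gapdh, the 3′ signal over the 5′ signal, a sign of RNA length, was 3.11 and 1.86 in KSP-positive cells, against 2.02 and 2.72 in KSP-negative cells, and that of actin was 2.92 and 1.80 in KSP-positive cells, against 1.79 and 3.55 in KSP-negative cells. The part of RNA length in the order of the arrays was not tested.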
